A study of Homo sapiens with 4 samples.

Results

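The genes described are the members of the MYC, MAX and MXD network that the study measured by mRNA sequencing in Jurkat cells, a cell line grown from a human T-cell leukaemia. They were taken by gene name from the table of 25122 genes: MYC, MYCN, MAX, MXD1, MXD3, MXD4, MXI1, MNT, MGA and ZBTB17, 10 in all, and each of them was found once. The study had 4 libraries, 2 from cells carrying a short hairpin RNA against BDH1 (shBDH1) and 2 from cells carrying a control hairpin (shcontrol). All 4 were labelled as wild type apart from the hairpin, and no time after hairpin delivery, no hairpin sequence and no clonal origin is given in the sources used here. BDH1 encodes the mitochondrial dehydrogenase that interconverts the ketone bodies acetoacetate and 3-hydroxybutyrate, and the study's description asks whether MYC lies downstream of it. That description also speaks of cells with MYC restored; these were not analysed here.

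MYC and MYCN are basic helix-loop-helix leucine zipper transcription factors that bind E-box DNA only as a pair with MAX, and MYC dimers raise genes of growth, ribosome production and metabolism. MXD1, MXD3, MXD4, MXI1, MNT and MGA compete for MAX: the MXD proteins, MXI1 and MNT bring the SIN3 and histone deacetylase corepressor to the same sites, and MGA builds a Polycomb complex, PRC1.6, around itself and MAX. ZBTB17 (MIZ1) is a zinc finger protein through which MYC represses genes such as cell cycle inhibitors. In T-cell acute lymphoblastic leukaemia, MYC is a well-known target of NOTCH1 signalling and a driver of growth.

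The libraries held 28681511 to 29453383 reads in genes, and values are normalized read counts, that is, reads divided by 1 size factor per library. BDH1 itself had 1221 and 1412 normalized counts in shBDH1, against 1725 and 1911 in shcontrol, which is -0.47 as a log2 ratio (limma adjusted p = 1.5e-05, SE 0.08). All 10 of the T cell markers checked, such as CD3E, LCK and CD7, were present. Their summed counts were 56047 and 57066 in shBDH1, against 47403 and 47534 in shcontrol. At a limma adjusted p under 0.05, 6 rose and 1 fell, so 70.0% passed, against 41.1% of all genes tested. Of the 10, 9 had a mean count of at least 500, a level at which 57.6% of genes passed. Of 12 markers of other blood, stromal and epithelial cells, 7 were in the table, with summed counts of 1316 and 1406 in shBDH1 against 659 and 697 in shcontrol. Of these, 5 were high enough to be tested, and CD79A, NKG7 and COL1A1 rose, so 60.0% of those tested passed. The myeloid markers LYZ and CD14, too low to be tested, had mean counts of 0 and 3.50 in shBDH1 and 0.511 and 4.61 in shcontrol. The part of these marker shifts in the results below was not tested. In bulk RNA, fewer cells that express a gene and less of its RNA per cell cannot be told apart.

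MYC was lower and MYCN higher in shBDH1, while MAX and 4 of the 6 MAX-binding repressors did not pass the test. Of the 10 genes, 4 fell (MYC, ZBTB17, MNT and MXI1), 1 rose (MYCN) and 5 did not pass the test (limma, adjusted p under 0.05 over 19301 genes tested). Calls were common in this comparison: 41.1% of all genes tested passed, 20.3% as higher and 20.8% as lower in shBDH1, and 57.6% passed among genes with a mean count of at least 500, a bound chosen after the values were seen. The 5 calls among 10 genes therefore lay near the background, and the results rest on the single genes and their sizes. The median log2 fold change was -0.08 over the 10 genes and -0.01 over all genes tested. Non-overlapping groups were seen for 8 of the 10 genes, against 69.0% of all genes tested.

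**Figure D1:**
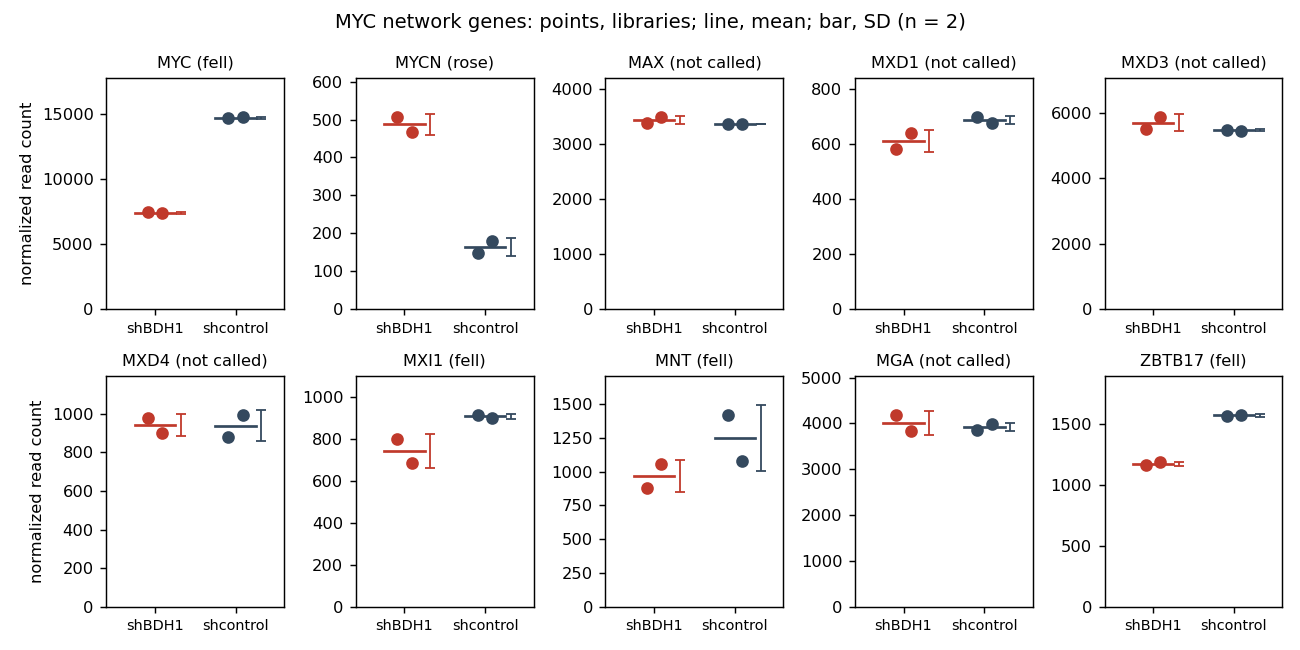
Normalized read counts of the 10 network genes (vertical axis, linear from 0) in each shBDH1 and shcontrol library; points are libraries, lines are means and bars are SD (n = 2). The shBDH1 points of MYC lie at 7453 and 7368 and its shcontrol points at 14683 and 14804, the order is the other way round for MYCN, and the MNT groups come close to each other.

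Since the network's proteins bind E-boxes, the sequence upstream of its own genes was examined. RefSeq windows on GRCh38.p14, the assembly family called hg38, covered 8 of the 10 genes with 13 windows, since some genes have several starts. The 250 bases before each start were searched on both strands for the E-box CACGTG, which MYC and MXD dimers with MAX bind, for its variant CACGCG, which reads CGCGTG on the other strand, and for the E2F-type motif TTTGGCGC, which reads GCGCCAAA there. The letters searched do not overlap one another in these windows. The windows printed are those of MYCN, the 1 member that rose, and of MNT and MXD4, the 2 members whose windows hold CACGTG; capitals mark the motif found. The MYCN window is chr2:15940300-15940549 (plus strand), the MNT window is chr17:2401061-2401310 (minus strand) and the MXD4 window is chr4:2262110-2262359 (minus strand), each written 5′ to 3′.
MYCN: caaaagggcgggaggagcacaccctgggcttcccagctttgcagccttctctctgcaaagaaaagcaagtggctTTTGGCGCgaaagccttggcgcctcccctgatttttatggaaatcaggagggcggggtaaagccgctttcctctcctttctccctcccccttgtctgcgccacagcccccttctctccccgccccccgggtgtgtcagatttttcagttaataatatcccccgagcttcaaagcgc
MNT: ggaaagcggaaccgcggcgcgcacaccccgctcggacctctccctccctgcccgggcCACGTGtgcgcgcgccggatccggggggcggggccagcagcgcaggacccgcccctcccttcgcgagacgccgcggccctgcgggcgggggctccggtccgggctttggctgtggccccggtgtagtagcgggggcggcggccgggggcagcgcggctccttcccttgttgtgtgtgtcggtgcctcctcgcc
MXD4: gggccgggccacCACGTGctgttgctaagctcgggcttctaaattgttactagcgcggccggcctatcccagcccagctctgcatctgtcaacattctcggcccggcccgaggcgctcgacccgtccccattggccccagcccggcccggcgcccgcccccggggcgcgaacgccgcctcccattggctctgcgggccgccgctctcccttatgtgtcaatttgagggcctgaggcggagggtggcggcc
In MYCN the E2F-type motif began 176 bases before the RefSeq start. CACGTG began 193 bases before the start of MNT and 238 bases before that of MXD4. Of all 35116 windows of this length, 6.34% hold CACGTG, 9.72% the variant, found among the members in a window of MGA, and 0.55% the E2F-type motif, which a window of MGA also holds. Of the genes with CACGTG here, MNT fell with a fragile call and MXD4, at a log2 fold change of 0.00, did not pass the test. These 2 genes are too few to relate the letters to a direction. A match describes the sequence only.

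MYC (ENSG00000136997, chromosome 8 from 127735434 to 127741434, hg38) had 7453 and 7368 normalized counts in shBDH1, against 14683 and 14804 in shcontrol. Libraries of a group differed by little next to the gap between groups, and the groups did not overlap. The means were 7411 ± 60.0 in shBDH1 and 14744 ± 85.6 in shcontrol (SD, n = 2 each), 49.7% less in shBDH1. The log2 fold change was -0.99, with an SE of 0.04 and a 95% interval from -1.07 to -0.92 (limma adjusted p = 2.7e-18). A larger fall than that of MYC was seen for 318 (7.91%) of the 4020 genes called lower, and for 83 of the 2507 with a mean count of at least 1000. No annotated gene overlaps MYC. Scaled to exon length, MYC ranked 249 and 269 among 15411 protein-coding genes in the shBDH1 libraries, against 97 and 98 in the shcontrol libraries, so it was still among the more abundant mRNAs of the cells.

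MYCN (ENSG00000134323, chromosome 2 from 15940564 to 15947007) is the paralogue best known from neuroblastoma. It had 507 and 468 normalized counts in shBDH1, against 148 and 181 in shcontrol. Both shBDH1 libraries were well above both shcontrol libraries. Its log2 fold change was 1.57, with an SE of 0.16 and a 95% interval from 1.24 to 1.89 (limma adjusted p = 3.1e-09), and 11.3% of the 3910 genes that rose had a larger one. MYCNOS, the antisense RNA that starts at the MYCN promoter and shares 98 exon bases with MYCN on the opposite strand, had 174 and 167 normalized counts in shBDH1, against 56.5 and 71.5 in shcontrol. It rose too, by 1.41 on the log2 scale (SE 0.26, limma adjusted p = 5.1e-05). The strand setting of the read counting is not given in the sources used here, so reads in the shared bases could belong to either gene.

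MYCN stayed a minor species beside MYC. Per exon length, in reads per kilobase of exon scaled to equal library totals (RPKM), MYCN reached 6.73 and 6.21 in shBDH1, against 1.93 and 2.36 in shcontrol. MYC stood at 85.8 and 84.8 RPKM in shBDH1, against 166 and 168 in shcontrol. MYCN thus made up 7.28% and 6.82% of the MYC and MYCN level in shBDH1, against 1.15% and 1.39% in shcontrol. The gain in MYCN was small next to the loss in MYC on this scale.

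MAX, the shared dimer partner, had 3382 and 3489 normalized counts in shBDH1, against 3359 and 3357 in shcontrol. The shBDH1 libraries lay just above the shcontrol ones, by less than the test resolves. Its log2 fold change was 0.03 (95% interval -0.08 to 0.14, limma adjusted p = 0.66). FNTB and its readthrough transcript CHURC1-FNTB overlap MAX on the opposite strand without shared exon bases. CHURC1-FNTB rose (log2 fold change 0.58, limma adjusted p = 4e-09), while FNTB stood at -0.41 (limma adjusted p = 0.22); the antisense RNA AL139022.1, which shares 184 exon bases with MAX, stood at 0.07 (limma adjusted p = 0.64). The ratio of MYC to MAX, per exon length, was 3.25 and 3.12 in shBDH1, against 6.45 and 6.51 in shcontrol.

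**Figure D2:**
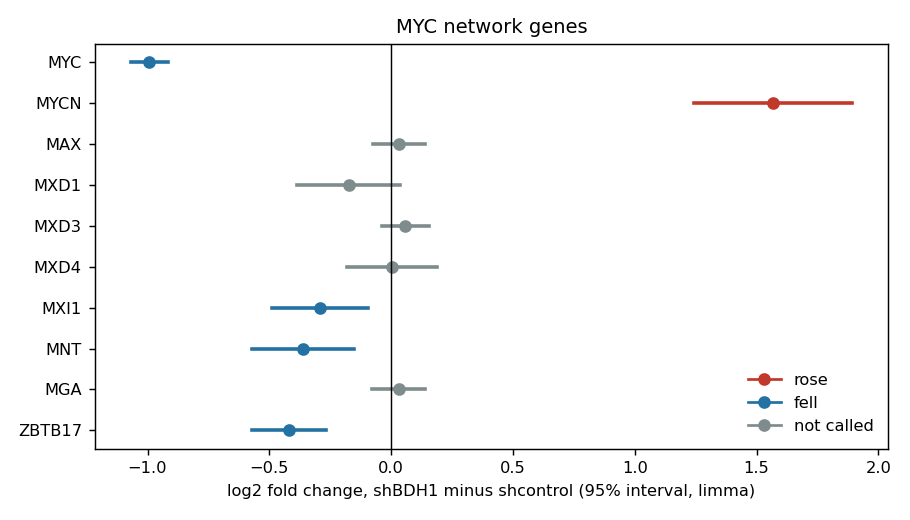
Log2 fold change of each network gene (horizontal axis, shBDH1 minus shcontrol) with its 95% interval from limma, coloured by the call. MYC and MYCN lie far to either side of 0, ZBTB17, MNT and MXI1 lie between -0.42 and -0.29, and the intervals of the other 5 genes include 0.

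Among the repressors, MNT and MXI1 fell by small amounts and the other 4 did not pass the test. MNT, a broadly expressed MYC antagonist, had 883 and 1053 normalized counts in shBDH1, against 1422 and 1078 in shcontrol. The groups did not overlap, but the higher shBDH1 library and the lower shcontrol library nearly met. The log2 fold change was -0.36, with an SE of 0.10 and a 95% interval from -0.57 to -0.15 (limma adjusted p = 0.0054). Without shcontrol replicate 1 it was -0.16 (limma adjusted p = 0.28) and without shBDH1 replicate 1 it was -0.23 (limma adjusted p = 0.17). AC006435.1, an antisense RNA whose 1065 exon bases all lie in MNT exons, had 260 and 272 normalized counts in shBDH1, against 396 and 352 in shcontrol, and fell as well (log2 fold change -0.49, limma adjusted p = 0.0082), so the reads of this pair may be shared.

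MXI1, also called MXD2, had 800.1 and 687 normalized counts in shBDH1, against 916 and 899 in shcontrol. The groups did not overlap, and the shBDH1 libraries were further from each other than the shcontrol ones. The log2 fold change was -0.29, with an SE of 0.10 and a 95% interval from -0.49 to -0.09 (limma adjusted p = 0.016). This call was lost without shBDH1 replicate 2 (-0.18, limma adjusted p = 0.21) and without shcontrol replicate 1 (-0.28, limma adjusted p = 0.065). The antisense RNA AL360182.2 shares 205 exon bases with MXI1 and had mean counts of 38.5 in shBDH1 and 31.7 in shcontrol.

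MXD1, which rises as many cell types stop dividing and differentiate, had 582 and 639 normalized counts in shBDH1, against 698 and 678 in shcontrol. Both shBDH1 libraries were lower, yet the log2 fold change of -0.17 (95% interval -0.39 to 0.04) did not pass the test (limma adjusted p = 0.19). SNRNP27, a splicing protein gene that shares 237 exon bases with MXD1 on the same strand, stood at -0.26 (limma adjusted p = 0.22). MXD4 had 981 and 901 normalized counts in shBDH1, against 882 and 996 in shcontrol. Its groups overlapped fully, with a log2 fold change of 0.00 (95% interval -0.18 to 0.19, limma adjusted p = 0.98).

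MXD3, an MXD gene expressed in dividing cells, had the highest count of the repressors: 5511 and 5879 normalized counts in shBDH1, against 5485 and 5444 in shcontrol. The log2 fold change was 0.06 (95% interval -0.04 to 0.15, limma adjusted p = 0.34). Its level is uncertain, because 1158 of its 5154 exon bases lie in exons of PRELID1 on the opposite strand and 926 in exons of RAB24 on the same strand. PRELID1, a mitochondrial lipid transfer gene, had mean counts of 4938 in shBDH1 and 4907 in shcontrol. RAB24, a small GTPase gene, was listed at 0.983 and 1.01 in shBDH1, against 0 and 6.13 in shcontrol. How reads in shared exons were assigned is not given in the sources used here.

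MGA, the scaffold of PRC1.6, had 4193 and 3826 normalized counts in shBDH1, against 3866 and 3979 in shcontrol. The groups overlapped, and the log2 fold change was 0.03 (95% interval -0.08 to 0.14, limma adjusted p = 0.69). AC073657.1, whose 510 exon bases all lie in MGA exons on the opposite strand, had mean counts of 49.7 in shBDH1 and 72.2 in shcontrol (limma adjusted p = 0.23).

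ZBTB17 (ENSG00000116809, chromosome 1 from 15941869 to 15976132) had 1159.8 and 1183 normalized counts in shBDH1, against 1559.7 and 1574 in shcontrol. Both groups were tight and lay apart. The means were 1171 ± 16.1 in shBDH1 and 1567 ± 10.1 in shcontrol (SD, n = 2 each), 25.2% less in shBDH1. The log2 fold change was -0.42, with an SE of 0.07 and a 95% interval from -0.57 to -0.27 (limma adjusted p = 3.3e-05), and it passed with each library left out in turn. MYC and the partner through which it represses genes were thus both lower.

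**Figure D3:**
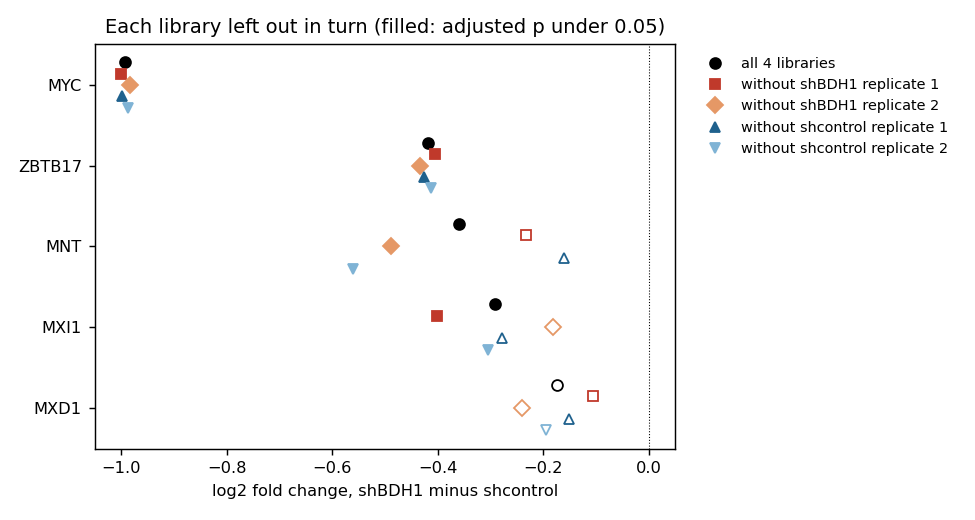
Log2 fold change (horizontal axis, shBDH1 minus shcontrol) of the 4 genes that fell and of MXD1 with all 4 libraries and with each library left out; filled symbols have a limma adjusted p under 0.05. MYC stays between -1.001 and -0.98 and ZBTB17 between -0.43 and -0.41, while MNT spreads from -0.56 to -0.16 and MXI1 from -0.40 to -0.18 with open symbols in each.

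Levels of the members could be set side by side only per exon length. In shcontrol the order was MYC, MXD3, MAX, ZBTB17, MGA, MXI1, MNT, MXD4, MXD1 and MYCN, and the libraries of neighbours overlapped only for MNT (4.197 to 5.53 RPKM) and MXD4 (4.24 to 4.80 RPKM). In shBDH1 the order was MYC, MXD3, MAX, ZBTB17, MGA, MYCN, MXI1, MXD4, MNT and MXD1, with no overlap between neighbours. MYCN was thus sixth in shBDH1 and last in shcontrol, while the first 5 places were the same. With the length of the longest transcript in place of the exon union the first 5 places were the same again, but MYCN was ninth in shBDH1 and last in shcontrol. MYC exceeded MXD3 in both groups, at 2.32 and 2.15 times its RPKM in shBDH1, against 4.60 and 4.67 times in shcontrol. That margin depends on the length used: by the longest transcript it was 1.30 and 1.21 times in shBDH1, against 2.58 and 2.62 times in shcontrol.

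The ratio of activator to repressor mRNA was lower in shBDH1, with a repressor sum that was nearly equal in both groups only when MXD3 was counted. The 6 repressors summed to 62.6 and 64.1 RPKM in shBDH1, against 63.8 and 62.8 in shcontrol, ranges that overlap. MXD3 made up 59.0% and 61.5% of this sum in shBDH1, against 56.6% and 57.1% in shcontrol. MYC and MYCN together stood at 1.48 and 1.42 times the repressor sum in shBDH1, against 2.63 and 2.71 times in shcontrol. By the longest transcript these were 0.969 and 0.92 times in shBDH1, against 1.76 and 1.81 times in shcontrol, so whether the activators exceeded the repressors in shBDH1 depends on the length used, while the lower ratio in shBDH1 does not. With MXD3 left out, because of its overlapping neighbours, the sum was 25.7 and 24.7 RPKM in shBDH1, against 27.7 and 26.9 in shcontrol. These ranges do not overlap, and the sum was lower in shBDH1. By the longest transcript it was 35.7 and 34.6 RPKM in shBDH1, against 39.0 and 37.6 in shcontrol. Per exon length, the ratios without MXD3 were 3.61 and 3.69 in shBDH1, against 6.07 and 6.32 in shcontrol. These are ratios of mRNA levels, given without a test, and protein was not measured here.

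**Figure D4:**
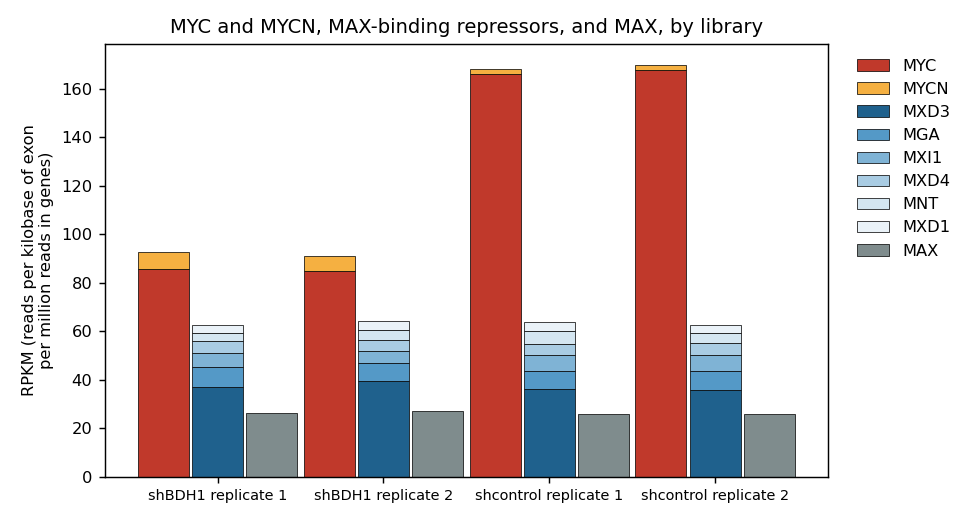
Level per exon length (vertical axis, RPKM, from 0) of MYC with MYCN, of the 6 MAX-binding repressors and of MAX in each library. The MYC and MYCN bars are lower in both shBDH1 libraries than in both shcontrol libraries, while the repressor stacks stay between 62.6 and 64.1.

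The genes whose pattern over the 4 libraries came closest to that of MYC were APEX1, CLPP, FOXM1, RAG1 and ZNF598, out of 6663 protein-coding genes with a mean count of at least 1000. Likeness was the Euclidean distance of log2(value + 1) around each gene's own mean, which was 0.0229 for APEX1 and 0.0484 for ZNF598. APEX1, a DNA repair endonuclease, had 2962 and 2936 normalized counts in shBDH1, against 5733 and 5856 in shcontrol. FOXM1, a transcription factor of mitotic genes, had 2592 and 2604 in shBDH1, against 5228 and 5085 in shcontrol. For MYCN, out of 11213 protein-coding genes with a mean count of at least 100, the nearest 5 included KCNH3, EFR3B, YES1 and FERMT2, at distances of 0.0600 for KCNH3 and 0.191 for FERMT2. YES1, a SRC-family kinase, had 1399.6 and 1427 normalized counts in shBDH1, against 485 and 529 in shcontrol. With 2 groups of 2 libraries, such likeness reflects little more than a similar fold change.

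Other members of the extended family did not pass the test. MYCL, the third MYC paralogue, had 298 and 292 normalized counts in shBDH1, against 329.6 and 325 in shcontrol (log2 fold change -0.15, limma adjusted p = 0.44). MLX, the partner in the parallel nutrient-sensing arm, stood at -0.00 (limma adjusted p = 0.98), and MLXIP, its MondoA dimer partner, at 0.02 (limma adjusted p = 0.76). MLXIPL (ChREBP), known from liver, had mean counts of 8.42 in shBDH1 and 10.8 in shcontrol and was too low to be tested. Outside the family, CDK4, the cyclin D kinase and a known MYC target, had 4151 and 3909 normalized counts in shBDH1, against 6006 and 5885 in shcontrol, with a log2 fold change of -0.56 (limma adjusted p = 1.3e-10).

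Genes known to be activated by MYC fell more often than they rose, but not as a block. Of 21 tested, 12 fell, 2 rose and 7 did not pass, with a median log2 fold change of -0.18 (all genes tested: 20.8% fell, 20.3% rose, median -0.01). All 21 had a mean count of at least 1000, a level at which 34.7% of genes fell and 26.2% rose. The list was drawn up with earlier results of these data known, so its counts describe these genes and are no independent test. CDK4, given above, is 1 of the 12 that fell. SLC7A5, the large neutral amino acid transporter, had 10763 and 10413 normalized counts in shBDH1, against 34665 and 33069.6 in shcontrol. The spermidine synthase SRM fell by 1.44, the ribosome biogenesis factor BOP1 by 0.87 and the mitochondrial serine hydroxymethyltransferase SHMT2 by 0.54 on the log2 scale (limma adjusted p = 2.5e-17, 3.8e-15 and 4.9e-11). Chosen after their values were seen, NCL (nucleolin) stood at 0.08 (limma adjusted p = 0.034) and the cap-binding factor EIF4E at 0.36 (limma adjusted p = 8.5e-06), the 2 that rose. ODC1, the ornithine decarboxylase and a textbook MYC target, also named after its values were seen, did not pass (0.04, limma adjusted p = 0.46).

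Genes known to be repressed by MYC, in part through ZBTB17, leaned the other way. This list too was drawn up with earlier results of these data known, so its counts are no independent test. Of 12 tested, 6 rose, none fell and 6 did not pass, with a median log2 fold change of 0.48, against 20.3% of all genes tested that rose; 5 of the 12 had a mean count of at least 500. CDKN1A (p21), the cell cycle inhibitor held down by MYC at ZBTB17, had 293 and 220.2 normalized counts in shBDH1, against 53.4 and 34.7 in shcontrol. Its log2 fold change was 2.53 (SE 0.27, limma adjusted p = 9.1e-09). CCND1 (cyclin D1) had 142 and 218 in shBDH1, against 50.3 and 32.7 in shcontrol, and its log2 fold change was 2.09 (SE 0.30, limma adjusted p = 2e-06). Both were low in count, and both groups lay apart. BCL2, the survival gene, rose by 0.82 and NDRG1, a stress and differentiation gene, by 0.55 on the log2 scale (limma adjusted p = 1.5e-08 and 3.2e-08). By limma at an unadjusted p under 0.05, and by edgeR, DESeq2 and limma-voom, the count of fallers was 0 as well.

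**Figure D5:**
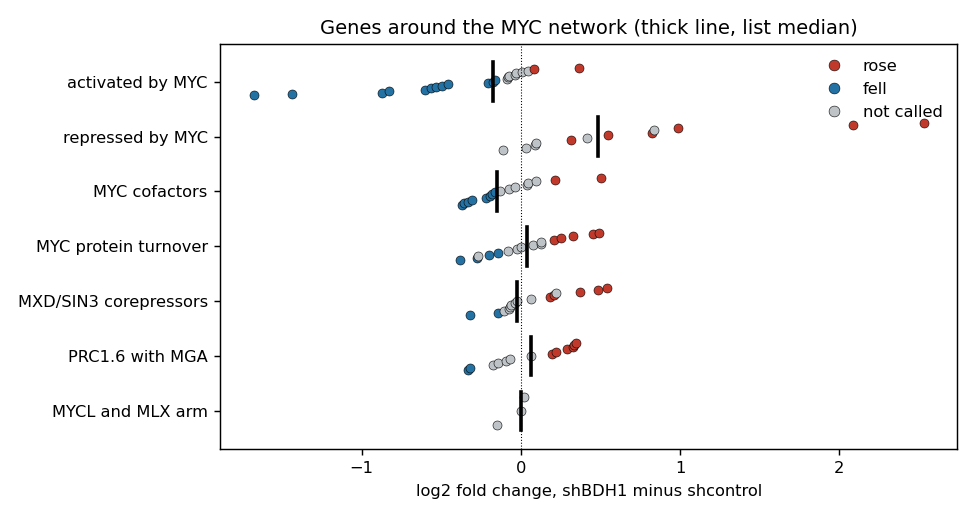
Log2 fold change (horizontal axis, shBDH1 minus shcontrol) of single genes in 7 lists around the network, coloured by the call, with a thick line at each list's median. The median is -0.18 for genes activated by MYC and 0.48 for genes repressed by MYC, and the other medians lie between -0.15 and 0.06.

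The 4 lists that follow lie nearly wholly among genes with a mean count of at least 500, of which 57.6% passed, 25.0% as higher and 32.6% as lower in shBDH1. The share of each list that passed, between 46.7% and 62.5%, is near that background, so their values describe single genes and not the lists. Of 16 cofactors that MYC uses on chromatin, 8 fell and 2 rose (62.5% passed, median -0.15). EP400, the ATPase of the TIP60 complex, fell by 0.36, and WDR5, the adaptor that anchors MYC on chromatin, by 0.33 on the log2 scale (limma adjusted p = 7.6e-07 and 1.3e-05). CDK9, the elongation kinase, had 3067 and 3171 normalized counts in shBDH1, against 2316 and 2084 in shcontrol, and rose by 0.50 (limma adjusted p = 9.7e-08). Of 16 genes that set MYC protein turnover, 5 rose and 4 fell (56.2% passed, median 0.04). FBXW7, the ubiquitin ligase subunit that marks phosphorylated MYC for degradation, had 2082 and 1989 normalized counts in shBDH1, against 1457 and 1509.5 in shcontrol, and rose by 0.46 (limma adjusted p = 2.8e-06). GSK3B, the kinase that creates the FBXW7 recognition site, rose by 0.33, and PPP2R5A, a phosphatase 2A subunit acting on MYC, by 0.49 (limma adjusted p = 1.3e-05 and 1.3e-07). HUWE1, another MYC ubiquitin ligase, fell by 0.20 on the log2 scale (limma adjusted p = 9.3e-05). MYC protein was not measured here.

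The partners of the repressors had calls both ways. Of 15 genes of the SIN3 and deacetylase corepressor, 5 rose and 2 fell (46.7% passed, median -0.03). The SIN3-associated ING1, SAP30 and ARID4B rose by 0.54, 0.48 and 0.37, while the histone chaperone RBBP4 fell by 0.15 (limma adjusted p = 1.7e-06, 0.00073, 0.00018 and 0.0021). Of 13 genes of PRC1.6, which include WDR5, HDAC1 and HDAC2 of the lists above, 6 rose and 2 fell (61.5% passed, median 0.06). The heterochromatin proteins CBX1 and CBX3 rose by 0.22 and 0.20, and TFDP1, the E2F dimer partner, fell by 0.32 (limma adjusted p = 0.00015, 8.4e-05 and 9.7e-07). Without shcontrol replicate 1, or without shBDH1 replicate 2, 3 genes of PRC1.6 rose in place of 6; without shcontrol replicate 1, 2 of the turnover genes fell in place of 4; and without shcontrol replicate 2, 3 corepressor genes rose in place of 5 and 1 fell in place of 2.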

How the data were processed

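Per the labels' protocols, TRIzol RNA was cleared of DNA and turned into mRNA libraries read as paired ends. HISAT2 2.2.1, FastQC 0.11.9 and the build hg38 are named in the submitters' processing notes, while the counter, annotation, strand setting and source of the size factors are not given there. The deposited values are a normalized signal: the authors divided gene read counts by 1 size factor per library. The evidence is in the numbers: in each library 100.0% of them were whole multiples of 1 step within 0.01 reads. The recovered size factors were 1.0174 and 0.9944 for shBDH1 and 0.9739 and 0.9785 for shcontrol.

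The whole table was fitted with limma 3.58.1 (R 4.3.3) on log2(value + 1), letting the variance prior depend on the level, for genes with a mean of at least 10 over the 4 libraries, with Benjamini-Hochberg adjusted p-values called under 0.05. Fold changes on the log2(value + 1) scale understate those of low genes. The residual degrees of freedom were 2, the prior ones 25.8. RPKM was computed from recovered reads and the union of exons in GENCODE 29, which held 25010 of the gene IDs. Separate cultures are not stated for the libraries of a group, and p-values then measure only the spread between libraries, which may be technical. Libraries of a group differed beyond sampling noise, with a chi-square per degree of freedom of 4.98 for shBDH1 and 3.71 for shcontrol.

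The members and lists were chosen with earlier results of these data known. All 10 members are named, with the genes overlapping them, BDH1, CDK4, the MYCL and MLX genes, up to 4 genes per list with the smallest p and the 5 most like MYC and MYCN, and a few genes that this rule would name are not reported here. Not analysed here were CCND2, EIF4A1 and CDKN2B of the lists, and 5 markers of other cells. Alternatives were edgeR 4.0.16, DESeq2 1.42.0 and limma-voom on recovered reads, other scalings, filters, pseudocounts and priors, a replicate block and each library left out. The fit was tested on simulated data with known changes and a spread that was fixed and not fitted to these libraries. It recovered 14 of 50 genes changed 1.25-fold, 37 of 50 changed 1.5-fold and 49 of 50 changed 4-fold. Small changes were thus often missed there.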

Additional observations from a re-analysis of the deposited data

How the results depend on the processing

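The calls of MYC, MYCN and ZBTB17 were kept in all 16 alternatives, with log2 fold changes from -1.001 to -0.95 for MYC, 1.42 to 1.71 for MYCN and -0.43 to -0.38 for ZBTB17. MAX, MXD1, MXD3, MXD4 and MGA passed in none. MNT and MXI1 lost their calls in 4 alternatives each: beside the left-out libraries given above, MNT did so without a filter on low values (limma adjusted p = 0.079) and without an intensity trend (0.27), and MXI1 with DESeq2 (DESeq2 adjusted p = 0.065) and without an intensity trend (limma adjusted p = 0.15). Without the trend, 2 network genes fell in place of 4, and over all genes 1598 rose and 1246 fell in place of 3910 and 4020; the cause was not tested. With each library left out in turn, 2 to 4 network genes fell and 1 rose. With a library left out, the log2 fold change of MXD4 ranged from -0.084 to 0.092 and that of MGA from -0.036 to 0.096; it turned negative for MXD4 without shcontrol replicate 1 and without shBDH1 replicate 1, and for MGA without shBDH1 replicate 1, never with a call. Of the scalings, that by upper quartile moved the median of all genes most, by 0.043 on the log2 scale.

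Without the trend the list counts fell most, to 2 risers and 0 fallers among turnover genes, 0 and 0 among cofactors, 1 and 0 among corepressors, and 0 and 0 in PRC1.6, while no gene activated by MYC rose. Turnover genes had 2 fallers with DESeq2, and 1 gene activated by MYC rose in place of 2 without a filter and without either shcontrol library. With the length of the longest transcript in place of the exon union, MYC and MYCN stood at a mean of 0.944 times the repressor sum in shBDH1 and 1.79 times in shcontrol, and MYCN at 5.64% of the MYC and MYCN level in shBDH1 and 1.00% in shcontrol; with MXD3 left out the ratios were 3.26 and 5.58. With the replicate number as a block, 4108 genes rose and 4217 fell, and 1 network gene rose and 4 fell, as without it. The correlation of deviations from the group means between libraries of the same number was 0.05 over 7227 genes. With 2 libraries a group both pairs give this same value, so it cannot settle whether the libraries were paired. The numbers were not taken as pairs. With 2 libraries a group the median SE was 0.12 over all genes and 0.06 at a mean of 1000 or more, so small changes were not detectable for low genes.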
